A study of Sus scrofa with 9 samples.

Results

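ADAM10, ADAM17, APH1A and LFNG act on the Notch receptor, and their array signals were followed through early development of the additional (permanent) molars of the pig. Every probe set that the platform's table assigned to 1 of these symbols and to no other was taken, whatever its values. This gave 9 of the 23999 probe sets tested, with 1 for ADAM10, 4 for ADAM17, 1 for APH1A and 3 for LFNG, out of 6765 genes that had a symbol of their own on the array. The germs, with dental lamina attached, were dissected from mandibles of Wuzhishan miniature pig embryos and fetuses at embryonic day 50 (E50), E60 or E70, with 3 biological replicates a stage and 1 Affymetrix Porcine Genome Array each. By the labels the first additional molar (M1) passed through cap (E50), bell (E60) and late bell (E70) morphology, and the second (M2) first appeared in the E60 germs. The series' design text treats E70 as a control. No animal was treated. The methods describe RNA from pooled germs, and whether each array had a pool of its own is not given in the sources used here, so p-values measure only the spread between these arrays, which may be technical. The methods also state that germs of the same stage came from the same litter, so stage and litter may not be separable here.

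Notch is a receptor through which neighbouring cells signal to each other. When a ligand on 1 cell pulls on the receptor of the next, an ADAM protease (ADAM10, and in some settings ADAM17) cuts the receptor outside the membrane, and γ-secretase, a protease complex to which APH1A belongs as a scaffold subunit, then cuts it within the membrane, so that the inner part can enter the nucleus and act with RBPJ on target genes. LFNG (lunatic fringe) is a Golgi enzyme that adds a sugar to O-fucose on the receptor and so sets how it answers the Delta and Jagged families of ligands; in mouse teeth it marks parts of the dental epithelium. ADAM10 and ADAM17 also release many other membrane proteins, ADAM17 being best known for freeing TNF.

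The E50 arrays stood apart from the rest in technical measures, and stage and these measures cannot be told apart. The array background, taken here as the 95th percentile of 23 control probe sets with no pig target, was 248, 77.7 and 379 on the E50 arrays and 37.9 to 55.8 on the 6 others. The 3′/5′ ratio of the EF1A control, which rises when RNA is broken or labelling stops short, lay between 49.3 and 55.8 on E50 arrays, between 1.42 and 1.56 on E60 arrays and between 1.35 and 1.47 on E70 arrays. By the methods, RNA had to reach a set integrity score before it was used on arrays. The geometric mean of the hybridisation spike-ins lay between 58370 and 66123 on E50 arrays and between 3086 and 4268 on the 6 others. The median signal was 261 to 352 on E50 arrays, 164 to 173 on E60 arrays and 173 to 184 on E70 arrays. The share of probe sets above background was 48.0% to 67.9%, 73.2% to 77.5% and 72.6% to 78.2%. Arrays of 1 stage correlated at r = 0.605 to 0.683 at E50 and at 0.901 to 0.921 at the later stages. Each germ also held several cell types: the summed signal of 4 epithelial markers spanned 3729 to 5443 on E50 arrays, 3701 to 4183 on E60 arrays and 8905 to 9502 on E70 arrays, that of 5 macrophage markers 3223 to 4895, 1177 to 1376 and 576 to 768, and that of 5 muscle markers 4141 to 5566, 1027 to 1233 and 374 to 396. For 6 odontoblast and bone markers the sums were 46496 to 56954, 58046 to 62148 and 10293 to 11150.0, and for 6 endothelial markers 3472 to 4222, 3183 to 3581 and 1758 to 2076. For 6 tooth mesenchyme markers they were 122318 to 134134, 81327 to 84417 and 58380.5 to 93305. Sums of 5 red blood cell markers were 2005 to 2993, 3046 to 3465 and 2743 to 4221. Those of 5 ameloblast markers were 490 to 895, 198 to 235 and 711 to 886. Of the 4 epithelial markers, 3, 3 and 4 were above background on every array of E50, E60 and E70, of the macrophage markers 2, 4 and 4, of the muscle markers 3, 4 and 4, of the odontoblast and bone markers 3, 4 and 4, and of the endothelial markers 4, 5 and 4. Of the mesenchyme markers 5, 6 and 5 were, of the red blood cell markers 3, 4 and 2, and of the ameloblast markers 0, 0 and 2. What part these shifts had in the changes below was not tested, and fewer cells of a type and less RNA per cell cannot be told apart in such samples.

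Of the 9 probe sets, 3 were above background on all 9 arrays, namely that of APH1A and 2 of LFNG. An ADAM17 probe set was above background on all arrays of E60 and E70 and on none of E50, and the other 5, ADAM10's among them, were never above it on all 3 arrays of a stage. Levels of different probe sets are not compared with each other, since each binds with its own strength.

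**Figure D1:**
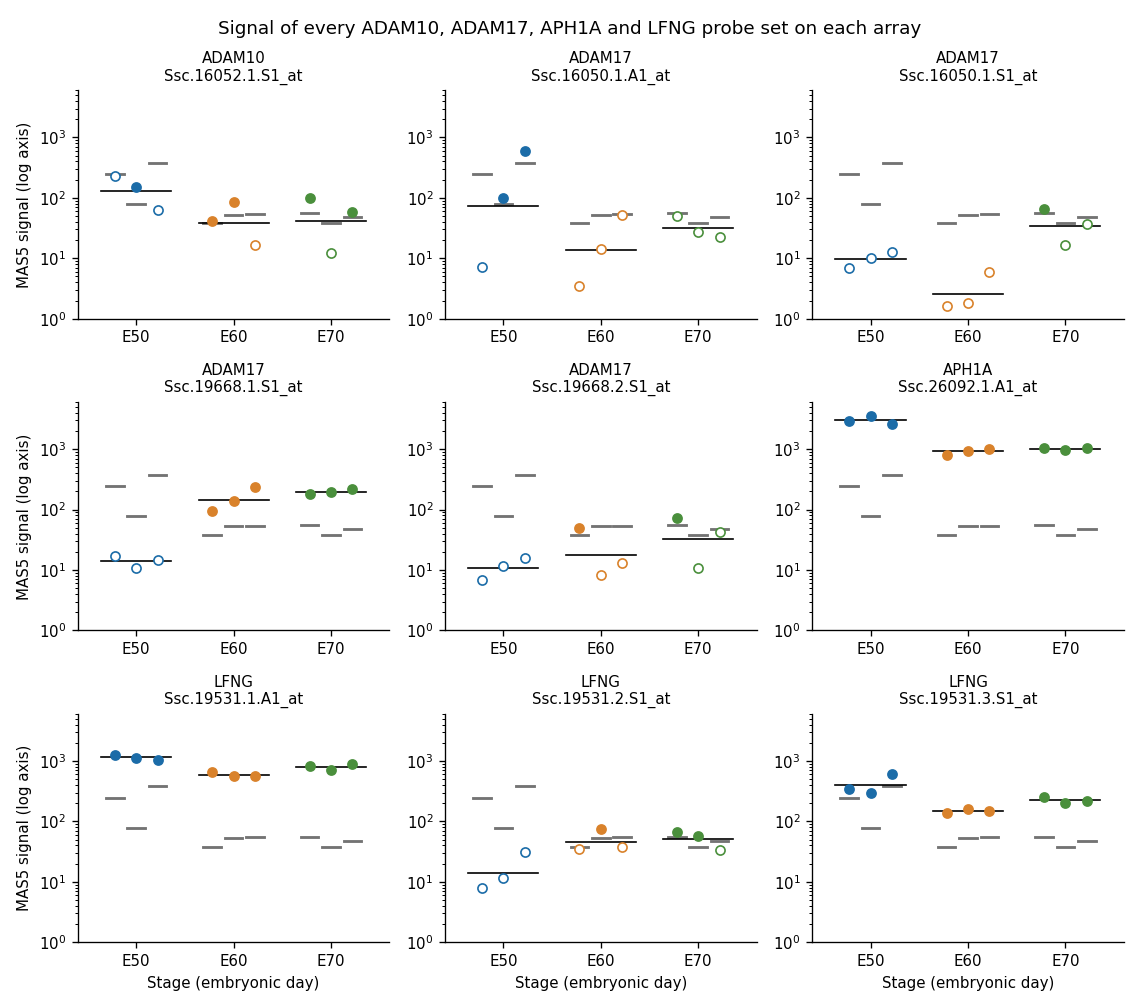
Array signal (MAS5, linear units on a log axis) of each probe set of ADAM10, ADAM17, APH1A and LFNG at E50, E60 and E70, 1 point an array in replicate order, with black bars at the geometric mean of 3 arrays and grey bars at each array's background; filled points are above background and open points are not. APH1A and 2 LFNG probe sets lie above background on all 9 arrays and highest at E50, and ADAM17 probe set Ssc.19668.1.S1_at moves from below background on 3 E50 arrays to above it on the 6 later ones.

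The cap to bell comparison, E60 against E50, had the most calls among the 9 probe sets. It includes the E50 arrays, which stood apart in technical measures, so stage and these measures cannot be told apart in it. Of the 9 probe sets 4 passed at an adjusted p under 0.05 in limma's test over all 23999 probe sets. APH1A and 2 of LFNG fell, and 1 of ADAM17 passed in the upward direction from E50 signals below background, so that its direction is not known from these arrays. In that comparison 18.5% of all probe sets tested passed, 7.85% higher and 10.6% lower at E60, which makes 42.5% of the calls higher, a share that was 83.7% with arrays centred on their median. The median change on the log2 scale was −0.18 over all probe sets and −1.42 over these 9. The arrays of the 2 stages did not overlap in 6 of the 9, against 39.2% of all probe sets. Of these 6, ADAM17 Ssc.19668.1.S1_at and Ssc.16050.1.S1_at and LFNG Ssc.19531.2.S1_at had no E50 array above background, so their separation is not measured. Limma's moderated F over the 3 stages called 5 of the 9, against 17.7% of all. ADAM17 Ssc.19668.1.S1_at and Ssc.16050.1.S1_at were among the 5.

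APH1A, the γ-secretase scaffold subunit, fell between E50 and E60 and stayed at the lower level. Its signal on Ssc.26092.1.A1_at was 2918, 3568 and 2646 on the E50 arrays, 804, 943 and 1020.3 on the E60 arrays, and 1065, 957 and 1034 on the E70 arrays. Every E50 array lay well above all 6 later ones, while E60 and E70 arrays overlapped. The geometric means were 3020 (SD 0.22 on the log2 scale, n = 3), 918 (SD 0.18) and 1018 (SD 0.08). The change from E50 to E60 was −1.72 on the log2 scale (SE 0.22, 95% interval −2.24 to −1.20, limma adjusted p = 0.00393), or 3.29-fold lower, and that from E50 to E70 was −1.57 (−2.09 to −1.05, limma adjusted p = 0.00429). From E60 to E70 it was 0.15, with an interval of −0.37 to 0.67.

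The fall of APH1A between E50 and E60 passed the test in each fit that left out 1 array, with values of −1.81 to −1.60. It was smallest with every array centred on its median, at −0.94 (SE 0.28, limma adjusted p = 0.0488), and the centring itself raised the median change over all probe sets by 0.77, to 0.60. Relative to the median of all probe sets, the fall was −1.54 as reported. From E50 to E70 the centred value was −0.86, and the call was lost (limma adjusted p = 0.0627).

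LFNG, the fringe sugar transferase, was lowest at E60 on the 2 probe sets that were above background throughout. On Ssc.19531.1.A1_at the signals were 1268, 1131 and 1045 at E50, 650.5, 564 and 558 at E60, and 833, 713 and 889.7 at E70. The 3 stages occupied separate ranges, with E50 highest, E60 lowest and E70 between them. Geometric means were 1145 (SD 0.14 on the log2 scale, n = 3), 589 (SD 0.12) and 808 (SD 0.16). The change from E50 to E60 was −0.96 (SE 0.21, interval −1.45 to −0.46, limma adjusted p = 0.0220), or 1.94-fold lower.

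On Ssc.19531.3.S1_at LFNG signals were 343, 298 and 602 at E50, 137, 159 and 148 at E60, and 252, 200.03 and 218 at E70. The order of the stages was the same as on the other probe set and again no ranges overlapped, with the third E50 array far above the other two. The change from E50 to E60 was −1.42 (SE 0.30, interval −2.13 to −0.70, limma adjusted p = 0.0199), from a geometric mean of 395 to 148, and it was −1.11 without the third E50 array. The signals of the 2 LFNG probe sets correlated over the 9 arrays at r = 0.827, a description in which the difference of E50 from the other stages takes part.

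The calls for LFNG were less firm than that for APH1A. On both probe sets the fall from E50 to E60 no longer passed when any 1 of the 3 E60 arrays was left out, with limma adjusted p of 0.0652, 0.0849 and 0.0834 for Ssc.19531.1.A1_at and 0.0767, 0.0618 and 0.0661 for Ssc.19531.3.S1_at. The changes in these fits were −1.03, −0.93 and −0.92 for the first and −1.36, −1.47 and −1.41 for the second. Over all probe sets the same fits called 1758, 1978 and 2211, against 4436 with every array. With each array centred on its median the falls were −0.18 and −0.64, and neither passed (limma adjusted p = 0.662 and 0.117). Ssc.19531.1.A1_at also lost its call with array weights (limma adjusted p = 0.0848), and Ssc.19531.3.S1_at with quantile normalization (−0.93, limma adjusted p = 0.0841).

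The upturn of LFNG from E60 to E70 was seen on both probe sets and passed the test on neither. It was 0.46 on the log2 scale for Ssc.19531.1.A1_at (interval −0.04 to 0.95, unadjusted p = 0.0667 in limma) and 0.59 for Ssc.19531.3.S1_at (interval −0.12 to 1.30, unadjusted p = 0.0921 in limma). Against E50, the E70 level was −0.50 (interval −0.998 to −0.01, limma adjusted p = 0.142) and −0.83 (−1.54 to −0.12, limma adjusted p = 0.100). With arrays centred on their median they were 0.21 and −0.12.

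The remaining LFNG probe set, Ssc.19531.2.S1_at, ran the other way at signals near background. It gave 7.92, 11.5 and 31.7 at E50, none above background, then 34.8, 76.2 and 37.8 at E60 and 65.7, 57.3 and 33.6 at E70, with 1 and 2 arrays above it. The E50 arrays were the lowest, while E60 and E70 overlapped. The values of 1.71 for E60 against E50 and 1.82 for E70 against E50 did not pass (limma adjusted p = 0.0825 and 0.0690), but did without the third E50 array (2.28 and 2.39, limma adjusted p = 0.0171 and 0.0139) and with arrays centred on their median (2.48 and 2.53, limma adjusted p = 0.0135 and 0.0125). Its signals correlated over 9 arrays at r = −0.773 with Ssc.19531.1.A1_at and −0.448 with Ssc.19531.3.S1_at, so the 3 LFNG probe sets do not give 1 picture of the gene.

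ADAM17, the TNF-releasing protease, had 4 probe sets, of which 1 was above background on every array of a stage. On Ssc.19668.1.S1_at the signals were 17.3, 10.98 and 14.6 at E50, all below background, then 95.3, 141 and 234 at E60 and 180.4, 199 and 216 at E70, all above it. The E50 arrays were low together and all 6 later arrays were several times higher, with E60 and E70 overlapping. E60 and E70 each passed against E50 (limma adjusted p = 0.00227 and 0.00107), but the E50 side of both tests consists of signals below background. The step from E60 to E70 was 0.43, with an interval of −0.42 to 1.28.

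Neither the size nor the direction of a change of ADAM17 from E50 to E60 or to E70 is known from these arrays. A level just at the E50 background would have been above the mean seen at E60, so no fold can be given. The geometric mean at E70, 198, was 1.02 times that of the E50 backgrounds. That ratio is not a lower limit, since the backgrounds of the first and the third E50 array, 248 and 379, were above all E70 signals. The measured E50 mean was 14.1.

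The other 3 ADAM17 probe sets were dim and did not follow the first. Ssc.16050.1.S1_at gave 6.96, 10.2 and 12.8 at E50, 1.60, 1.82 and 5.86 at E60, and 64.5, 16.4 and 37.4 at E70, with 1 of the 9 arrays above background. No stages overlapped, E60 being lowest and E70 highest, and the moderated F passed (limma adjusted p = 0.0207) although each pairwise change did not, the step from E60 to E70 being 3.72 (SE 0.66, limma adjusted p = 0.0975). The change from E50 to E70, 1.81 as reported, passed with median centring and with quantile normalization (2.52 and 2.70, limma adjusted p = 0.0284 and 0.0256).

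Ssc.16050.1.A1_at gave 7.04, 99.1 and 587 at E50, 3.45, 14.5 and 53.0 at E60, and 50.5, 27.5 and 22.7 at E70. The E50 arrays alone spanned nearly the whole range, and only the second and the third of them were above background. Ssc.19668.2.S1_at gave 6.85, 11.6 and 15.9 at E50, 49.9, 8.32 and 13.3 at E60, and 73.2, 10.8 and 42.0 at E70, with the first array of E60 and of E70 above background and all stages overlapping. Between E50 and E60 they moved by −2.42 (SE 1.62) and 0.71, and neither passed in any comparison. Among the 4 ADAM17 probe sets the correlations over 9 arrays ran from −0.343 to 0.455.

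ADAM10, the main sheddase of Notch, was measured close to background. Its probe set Ssc.16052.1.S1_at gave 226, 154 and 63.1 at E50, 41.3, 85.0 and 16.5 at E60, and 99.98, 12.1 and 59.1 at E70. The stages overlapped throughout, and 1, 2 and 2 arrays were above background. Geometric means were 130.0, 38.7 and 41.5. The difference from E50 to E60 was −1.75 with an interval of −3.95 to 0.46 (limma adjusted p = 0.234), that from E60 to E70 was 0.10 (−2.10 to 2.31), and that from E50 to E70 was −1.65, so that neither a fall of several fold nor a level that held could be told from these arrays.

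**Figure D2:**
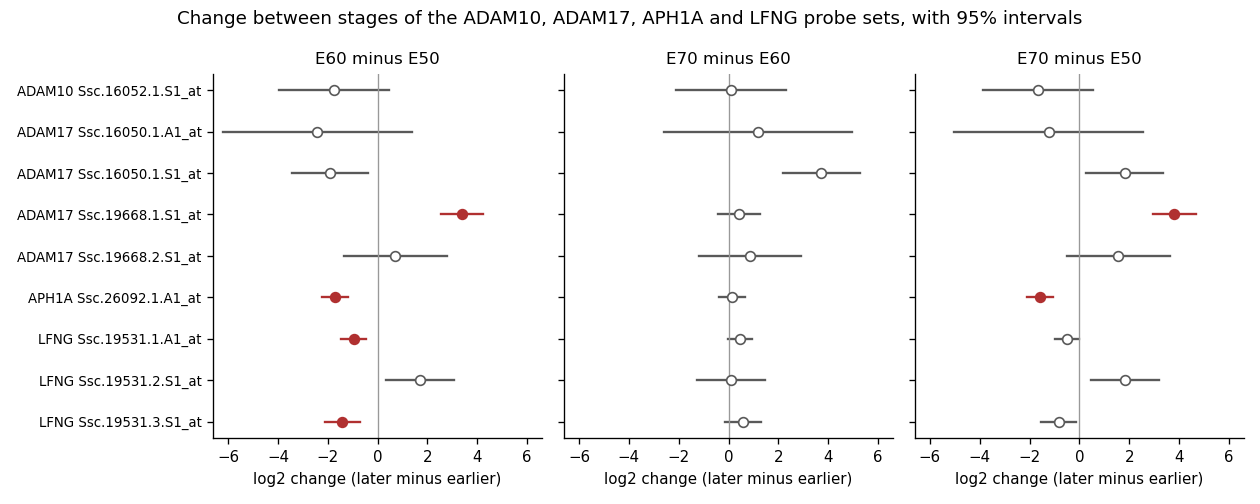
Change in log2 signal between stages (later minus earlier) for the 9 probe sets of ADAM10, ADAM17, APH1A and LFNG, with 95% intervals from limma; filled red points passed at an adjusted p under 0.05 and open points did not. From E50 to E60 APH1A and 2 LFNG probe sets fell; the E50 signals of ADAM17 Ssc.19668.1.S1_at are below background, so its points against E50 are not measured changes; from E60 to E70 none passed; one of the LFNG probe sets, Ssc.19531.1.A1_at, turns from −0.50 to 0.21 for E70 against E50 when arrays are centred on their median.

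From the bell to the late bell stage, E70 against E60, none of the 9 probe sets passed in limma, where 0.421% of all probe sets did. At an unadjusted p under 0.05 there was 1, the dim ADAM17 probe set Ssc.16050.1.S1_at, which passed with array weights in the fit (3.79, limma adjusted p = 0.0166). A fit of these 2 stages alone called none of the 9 and 1.75% of all probe sets. The arrays of the 2 stages were apart in 3 of the 9, that ADAM17 probe set and the 2 bright ones of LFNG, against 28.2% of all probe sets. The median change of the 9 was 0.46, and of all probe sets 0.05.

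From the cap to the late bell stage, E70 against E50, 2 of the 9 passed, ADAM17 Ssc.19668.1.S1_at upward from below background and APH1A lower, where 18.8% of all probe sets did, 8.16% higher and 10.6% lower, so that 43.4% of the calls were higher, against 80.6% with arrays centred on their median. Arrays did not overlap in 6 of the 9, against 37.4% of all. These were the same probe sets as from E50 to E60, so some again had no E50 array above background. The median change was −0.50 over the 9 and −0.11 over all probe sets. This comparison shares the E50 arrays with the first and the E70 arrays with the second, so the 3 are not separate evidence.

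**Figure D3:**
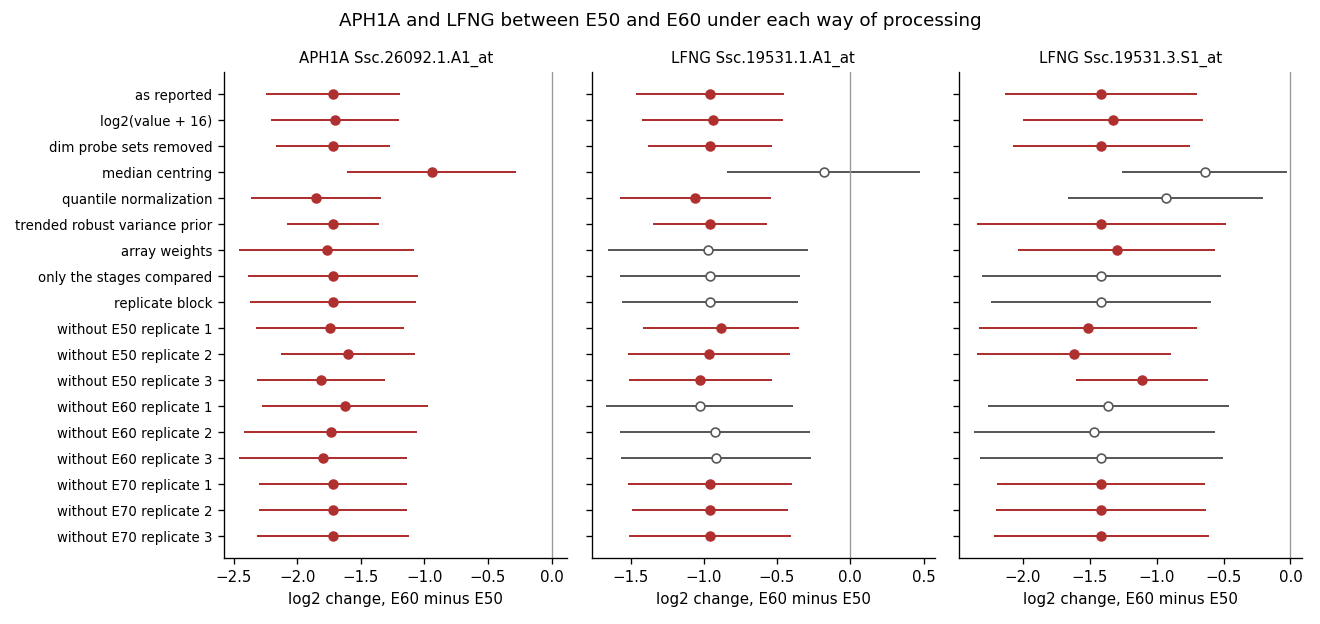
Change in log2 signal from E50 to E60 for APH1A and the 2 LFNG probe sets above background on all arrays, under each way of processing and with each array left out, with 95% intervals; filled red points passed at a limma adjusted p under 0.05 and open points did not. All values are below 0, APH1A passes throughout, and both LFNG probe sets lose the call without any 1 of the E60 arrays and with arrays centred on their median (−0.18 and −0.64).

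Around these 4 genes, 59 other genes of the pathway were listed by role, and 20 of them had a probe set of their own. Each was read on its brightest probe set. From E50 to E60, 4 rose, 1 fell and 15 did not pass, where 18.5% of all probe sets passed, and the median change was 0.30 beside −0.18 over all probe sets. From E50 to E70 again 4 rose, 1 fell and 15 did not pass, where 18.8% of all passed, and the median was 0.55 beside −0.11. The medians over all probe sets include many dim ones. With dim ones removed, the median over the 17101 probe sets kept was 0.20 from E50 to E60 and 0.27 from E50 to E70. From E60 to E70 none passed in limma, 2 had an unadjusted p under 0.05, and 1 passed with array weights.

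Within γ-secretase, 4 of 6 listed subunits were measured, and APH1A alone passed. PSENEN, another subunit that every active complex contains, gave 1439 to 2215 on E50 arrays, 1387 to 1697 on E60 arrays and 1334 to 1599 on E70 arrays. Its ranges overlapped at all stages, and the change from E50 to E60 was −0.20 beside −1.72 for APH1A. NCSTN, the subunit that receives the substrate, changed by 0.21 with 1 of 3 E50 arrays above background, and PSEN2, one of the alternative catalytic subunits, was at or below background on most arrays. Whether APH1A differed from the other subunits was not tested.

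Among enzymes that put sugars on the receptor, 3 of 5 listed were measured, and LFNG and POFUT1 fell from E50 to E60. The third, POGLUT1, went the other way by 0.83 and did not pass (limma adjusted p = 0.101), though every E60 array lay above the E50 arrays. POFUT1 attaches the O-fucose on which LFNG builds. It gave 550.04 to 680 on E50 arrays, 191 to 334 on E60 arrays and 330.15 to 551 on E70 arrays. As with LFNG the geometric mean was lowest at E60, though the E60 and E70 arrays overlapped. The change from E50 to E60 was −1.23 (SE 0.30, limma adjusted p = 0.0313), and the call went in 5 of 9 fits with an array omitted, while its other probe set gave 0.49 and did not pass. With arrays centred on their median the fall was −0.45 (limma adjusted p = 0.369), and with quantile normalization it was −1.03 (limma adjusted p = 0.0601).

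Of ligands and receptors few were measured. JAG1, a ligand that the fringe enzymes are known to set against the Delta family, gave 7001 to 9101 on E50 arrays, 5375 to 6515 on E60 arrays and 4223 to 4762 on E70 arrays. Each stage lay below the one before, and the change from E50 to E70 passed at −0.80 (SE 0.22, limma adjusted p = 0.0415) but did not hold in 7 of 9 fits with an array omitted and was −0.09 with arrays centred and −0.67 with quantile normalization, passing under neither (limma adjusted p = 0.836 and 0.0746). A further JAG1 probe set, Ssc.10219.1.A1_at, also fell, by −1.86 (limma adjusted p = 0.00311), and another gave 0.67 and did not pass. DLL4 and NOTCH4, the sole receptor measured, did not pass in any comparison.

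Downstream, RBPJ, the DNA-binding partner of the cut receptor, did not pass, at −0.15 from E50 to E60, and nor did the target HES1, at −0.30. Among 8 nuclear factors measured of 17 listed, 3 rose from E50 to E60: the co-activator SNW1 by 1.21 and the co-repressors CTBP2 by 1.21 and CIR1 by 1.22 (limma adjusted p = 0.0227, 0.0184 and 0.0130). The other probe set of CTBP2 gave 1.30 and passed (limma adjusted p = 0.0111). Those of SNW1 and CIR1 gave 0.58 and 1.38 and did not pass. On their brightest probe sets SNW1, CTBP2 and CIR1 also passed from E50 to E70, at 1.06, 1.10 and 1.16. Without 1 of the E60 arrays, whichever it was, the call from E50 to E60 was lost for SNW1 and CTBP2. For CIR1 it was lost without the first. ITCH, a ubiquitin ligase that can act on Notch, rose by 1.28 from E50 to E60 (limma adjusted p = 0.0436), a call lost in 8 of 9 such fits. With quantile normalization ITCH and, in both comparisons, SNW1 did not pass (limma adjusted p = 0.0866 for ITCH and 0.0520 and 0.0674 for SNW1).

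HEY2, a target gene of Notch, rose from E50 to E70. It gave 299 to 769 on E50 arrays, 643 to 738 on E60 arrays and 1565 to 1662 on E70 arrays, with every E70 array above the 6 others. The change was 1.66 (SE 0.35, limma adjusted p = 0.0184), lost without any 1 of the E70 arrays, and its other probe sets gave −0.19 and 1.79, neither of which passed.

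**Figure D4:**
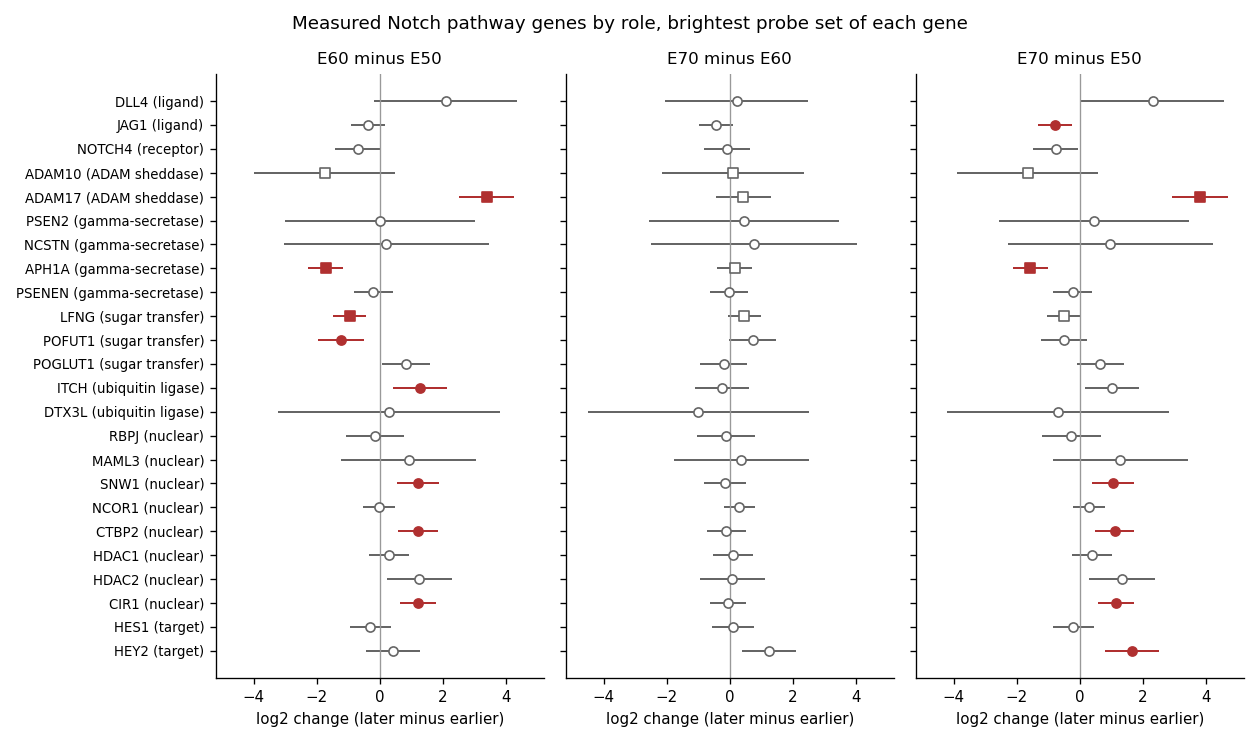
Change in log2 signal between stages for the 24 measured genes of the Notch pathway by role, each on its brightest probe set, with 95% intervals from limma; squares are ADAM10, ADAM17, APH1A and LFNG and circles the other genes, filled red where the adjusted p was under 0.05. From E50 to E60 APH1A and LFNG fell beside 4 rising and 1 falling other genes, ADAM17 was below background at E50 so that its direction is not known, and from E60 to E70 none passed; centring arrays on their median turns LFNG from −0.50 to 0.21 for E70 against E50.

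Proteins that control ADAM10 or ADAM17, or are cut by them or by γ-secretase, were also listed. Of 10 measured controllers, 1 passed: TSPAN17, a tetraspanin that binds ADAM10, changed by −1.44 from E50 to E70 (limma adjusted p = 0.0193). ADAM9, ADAM15 and ADAM28, the other ADAM genes measured of 10 listed, did not pass. Of 13 measured substrates, the TNF receptors TNFRSF1A and TNFRSF1B, both shed by ADAM17, fell from E50 to E60 (−1.02 and −0.91, limma adjusted p = 0.0303 and 0.0331) and from E50 to E70 (−1.32 and −1.12, limma adjusted p = 0.0118 and 0.0160). The adhesion proteins CDH1 and SDC1, which epithelia carry, rose from E50 to E70 by 1.17 and 1.30 (limma adjusted p = 0.0213 and 0.0275). ALCAM rose by 1.05 from E50 to E60 and 0.94 from E50 to E70 (limma adjusted p = 0.0135 and 0.0187), and a further probe set above background on all arrays, Ssc.13385.2.S1_a_at, rose by 2.07 and 2.00 (limma adjusted p = 0.00237 and 0.00189), while another, Ssc.443.1.A1_at, went the other way, from 2 of 3 arrays above background at E50 to 0 at E60 and at E70. The calls of these related genes were lost in 1 to 7 of the 9 fits with an array omitted, and with arrays centred on their median neither TNF receptor nor TSPAN17 passed. With quantile normalization TNFRSF1B from E50 to E60 and SDC1 did not pass (limma adjusted p = 0.0648 and 0.0537). Across these 3 related lists 1 of 26 measured genes rose and 2 fell from E50 to E60, and 3 rose and 3 fell from E50 to E70, where 18.5% and 18.8% of all probe sets passed.

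The genes whose signal ran most like each of the 4, on its brightest probe set and among 5214 genes, are given as a description over the 9 arrays. For APH1A they were SOD1 (r = 0.992), C1QTNF2 (0.991) and RPS28 (0.988). Like APH1A these were highest at E50 and lower at both later stages, SOD1 with geometric means of 11894, 4869 and 5226. For LFNG they were FAM3A (0.986), TOMM22 (0.981) and NQO1 (0.965), and FAM3A went from 986 to 576 and 758. For ADAM17 they were SRRM1 (0.983), GOSR2 (0.983) and CLK1 (0.976), all with their lowest geometric mean at E50, and for ADAM10 SERHL2 (0.910), DCAF11 (0.906) and PPM1F (0.897). These last lists rest in part on signals below background, those of ADAM17 at E50 and those of ADAM10 on some arrays of each stage. The E50 geometric mean of GOSR2, 18.8, was also under the E50 backgrounds. All these points share the gap between the E50 arrays and the rest.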

How the data were processed

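RNA of additional molar germs was measured on 9 Affymetrix Porcine Genome Arrays, 3 a stage, grouped by the stage in the labels. The authors summarised each probe set to a single signal intensity by the MAS5 algorithm of GeneSpring, and the deposited intensities are linear, not logged. Detection calls were not used here. Of 24123 probe sets, 124 array controls were set aside. Gene symbols came from the platform's annotation, which can be old: 10069 probe sets had 1 symbol, 198 several and 13732 none.

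Values under 1 (0.417% of all) were set to 1, log2 was taken, and the 3 stages were fitted together with limma 3.58.1 in R 4.3.3 (lmFit, contrasts.fit, eBayes), the nearest tool here to the random variance F-test of the methods. P-values were adjusted by Benjamini-Hochberg over 23999 probe sets, and 0.05 was the threshold. Arrays have no read depth: their number and signal over background limit the precision. The lists of Notch and marker genes and the 4 genes themselves were chosen with earlier results of these data known. Genes of the lists called on their brightest probe set were named. A fold against a stage below background was taken against the geometric mean of that stage's array backgrounds, and given only where above 1. Alternatives were log2(value + 16), removal of dim probe sets (17101 kept), median centring, quantile normalization, a trended robust prior, array weights, the compared stages alone, a replicate block and each array left out. The fits were tested on simulated data for E70 against E60 alone. The comparisons with E50, which hold the calls reported for the 4 genes, were not covered. Summaries and plots used Python 3.11.15.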

Additional observations from a re-analysis of the deposited data

How the results depend on the processing

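The count of changed probe sets among the 4 genes from E50 to E60, 4 as reported, was 2 in a fit of those stages alone and 2 with a replicate block, in both cases APH1A and ADAM17 Ssc.19668.1.S1_at, and 2 to 5 with 1 array left out. From E60 to E70 it was 0, 1 with array weights, and 0 to 0 with 1 array left out, and from E50 to E70 it was 2, and 2 to 3 with 1 array left out. Over all probe sets, 4436 were called from E50 to E60: 1871 with array weights, 2087 in the fit of the stages alone, 2811 with the replicate block and 1758 to 5975 with 1 array left out. From E60 to E70 there were 101: 172 with dim probe sets removed, 67 with median centring, 407 with the trended robust prior, 934 with array weights, 420 in the fit of the stages alone, 9 with the replicate block and 30 to 149 with 1 array left out. From E50 to E70 there were 4510: 2015 with array weights, 1877 in the fit of the stages alone, 2944 with the replicate block and 2252 to 6116 with 1 array left out. LFNG Ssc.19531.1.A1_at turned from −0.50 to 0.21 between E50 and E70 with median centring. Of the 20 other pathway genes, 5 passed from E50 to E60, and 8 did with median centring, 2 with quantile normalization, 1 with array weights, 1 in the fit of the stages alone, 2 with the replicate block and 0 to 5 with 1 array left out; from E50 to E70 the 5 became 10, 3, 1, 0, 2 and 0 to 7 in the same order. From E60 to E70, where none passed, 1 did with array weights and 1 in the fit of the stages alone. The cause of these shifts was not tested.

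Same-numbered arrays of different stages did not deviate together (r of −0.021 to 0.026 over 9 pairs, and −0.036 to 0.032 over 18 pairs with different numbers), so the numbers were not taken to pair samples. For the 3 probe sets above background on all arrays, 137 of 153 values under the alternatives kept their direction and their side of the threshold, 15 lost a call and 1 reversed. Most of the 153 belonged to changes that were not called as reported, and so had no call to lose. Of the lost calls, 1 was of APH1A, from E50 to E70 with arrays centred on their median, and the others were of LFNG from E50 to E60. The values of ADAM17 Ssc.19668.1.S1_at against E50 are not counted, since its E50 signals were below background. Dim probe sets, 5 of the 9, limit what can be said of ADAM10 and ADAM17.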
